A study of Mus musculus with 15 samples.

Results

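The genes described here encode the proteins of the cytosolic ribosome, measured in the skin of female SKH1 mice, hairless animals in which ultraviolet tumours are studied. They were chosen by symbol: Rpl or Rps and a number, alone or followed by a, x, l, l1 or al, together with Rplp0, Rplp1, Rplp2 and Rpsa. The rule takes 84 of the 24027 symbols listed, 52 of the large and 32 of the small subunit, and leaves out symbols that end in -ps and the S6 kinases. It also leaves out the small subunit gene Rps3a1 and the fusion gene Fau. Of the 84 members, 8 are copies of another member (Rpl3l, Rpl7l1, Rpl10l, Rpl22l1, Rpl36al, Rpl39l, Rps4l and Rps27l). GENCODE annotates 83 as protein-coding and Rps4l as a transcribed processed pseudogene.

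Mice of 6 to 8 weeks received ultraviolet B at 500 J/m2, 5 days a week over 10 weeks, a course that gives actinic keratoses, the keratinocyte lesions from which squamous cell carcinoma can arise. Control mice were given 0.25 g of a placebo cream on 5 days per week, and treated mice the same amount of the topical agent GZ21T. The 15 total RNA libraries form 5 groups of 3: placebo lesional, placebo perilesional, placebo non-lesional and placebo non-UV-exposed skin, and GZ21T lesional skin. Every group is SKH1 and carries the label of actinic keratosis, the unexposed skin included. The labels do not say outright that libraries of a group are separate animals, so the spread behind the p-values may be technical. Libraries of the 4 placebo groups share their control numbers, so sites of 1 mouse may recur across groups, which the tables cannot show. The authors' deposited tables hold a log2 fold change, a Wald statistic and p-values per gene for 4 comparisons. Values per library, levels and depth are not analysed here, so no library can be singled out and no gene can be ranked by its level. A gene was called where its adjusted p was under 0.05. All 6 keratinocyte markers listed were tested in every comparison.

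A cytosolic ribosome joins a large subunit, which forms peptide bonds, to a small subunit, which reads the mRNA. Each protein is normally present in 1 copy per subunit, apart from the stalk proteins, and surplus protein is degraded, so cells tend to make the set in step. Their mRNAs usually start with a C followed by a run of pyrimidines, the 5′ terminal oligopyrimidine or TOP tract, through which the kinase mTOR and the protein LARP1 control their translation and stability. MYC raises the transcription of many ribosomal protein genes, and demand for ribosomes is high in growing epithelium and in tumours.

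The TOP tract is the sequence feature these genes are known for, and the start sites of several members are shown for that reason. RefSeq promoter windows on GRCm38.p6 were matched for 63 of the 84 members. Each window below runs from 15 bases before the annotated start to 15 bases from it on, 5′ to 3′ on the gene's strand. Capitals mark an unbroken run of C and T, at least 6 letters long, from its first C within 10 bases of the annotated start. Letters C or T directly before that C, as in Rpl7a, are neither marked nor counted. The first 6 lines are the longest runs so marked. The next 3 are members with a marked run that rose in lesions, and the last 3 are members that changed and have no marked run.
Rpl27a, chr7:109519180-109519209, plus strand: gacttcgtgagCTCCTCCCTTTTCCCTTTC
Rpl35, chr2:39005117-39005146, minus strand: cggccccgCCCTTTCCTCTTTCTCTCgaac
Rpl15, chr14:18270972-18271001, minus strand: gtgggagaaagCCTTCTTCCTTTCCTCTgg
Rpl7a, chr2:26910792-26910821, plus strand: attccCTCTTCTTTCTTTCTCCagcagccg
Rpl13a, chr7:45128731-45128760, minus strand: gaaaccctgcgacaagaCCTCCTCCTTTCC
Rpl14, chr9:120571502-120571531, plus strand: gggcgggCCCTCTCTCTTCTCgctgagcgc
Rps2, chr17:24720048-24720077, plus strand: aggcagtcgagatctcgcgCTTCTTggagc
Rps23, chr13:90923107-90923136, plus strand: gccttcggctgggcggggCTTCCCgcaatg
Rpl18, chr7:45718056-45718085, plus strand: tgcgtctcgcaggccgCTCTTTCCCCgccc
Rps13, chr7:116334176-116334205, minus strand: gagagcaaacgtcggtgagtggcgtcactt
Rpl27, chr11:101442230-101442259, plus strand: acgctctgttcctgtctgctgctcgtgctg
Rpl41, chr10:128549154-128549183, minus strand: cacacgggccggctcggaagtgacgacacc
Such a run was found for 34 of the 63 members (54.0%), against 5910 of 27025 symbols (21.9%) with a window of the same kind. The marking depends on the annotated start and on the limits of length and distance. Rpl4 and Rpl13, for example, hold runs of C and T further before the annotated start that were not marked. A member with no marked run may therefore still have a TOP tract. The runs of Rpl27a and Rpl13a reach the last base shown. Fixed motifs were sought on both strands of the whole 300 base window, and none of the 4 contains another. The ETS core CCGGAAGT stood in 12 of 63 members (19.0%) against 4.31% of all symbols, and the YY1 core AAGATGGC in 6 (9.52%) against 3.19%. The SP1 box GGGGCGGG was present in 10 (15.9%) against 18.4%, and TATAAA in 7 (11.1%) against 15.7%. These are matches of letters and do not show that a factor binds.

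Irradiated skin without lesions was compared with unexposed skin first. The headers name a back group, taken here by elimination as the unexposed skin, so this comparison cannot tell body site from exposure. The members were centred on 0, with a median log2 fold change of -0.01 over 82 tested, 41 above 0 and 41 below. For all genes tested the median was -0.02. None of the 82 was called by the authors' DESeq2 test, against 1.66% of all genes (1.13% higher and 0.531% lower), and 0 had an unadjusted p under 0.05. The large subunit had a median of 0.02 and the small subunit one of -0.03. Rps14, a protein of the small subunit platform, had the smallest adjusted p, at -0.41 ± 0.30 (SE; adjusted p = 0.76) per the authors' deposited table. Rplp2, an acidic protein of the ribosomal stalk, was given as 0.23 ± 0.20 (adjusted p = 0.83) and Rpl39, a small protein at the exit tunnel, as -0.39 ± 0.33 (adjusted p = 0.82) from the authors' deposited table. The lowest of the members tested was the copy Rpl22l1, at -0.48 ± 0.43 (adjusted p = 0.84), by the authors' deposited table. Rpl39l, at -0.97 ± 1.57 in the authors' deposited table, has no adjusted p there. At the other end Rpl3l, Rpl26 and Rps27 stood at 1.53 ± 1.42, 1.07 ± 2.04 and 0.75 ± 1.00 from the authors' deposited table. Their SEs, computed from the deposited values, are several times those of most members.

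Perilesional over non-lesional skin, both irradiated, gave no calls among the members and a median above 0. That median was 0.27 over 83 tested, a fold of 1.20, with 76 above 0 and 7 below, beside a median of 0.03 for all genes. No member was called by the authors' DESeq2 test, where 0.112% of all genes were (0.0921% higher and 0.0197% lower), and 4 of 83 (4.82%) had an unadjusted p under 0.05, beside 7.83% of all genes. Those 4 are Rps14 at 0.70 ± 0.30 (adjusted p = 0.52), Rps29 at 0.59 ± 0.27 (adjusted p = 0.59), Rpl37a at 0.56 ± 0.27 (adjusted p = 0.59) and Rps2 at 0.53 ± 0.25 (adjusted p = 0.60) per the authors' deposited table. Rps29 and Rpl37a are small zinc-binding proteins, and Rps2 lines the mRNA entry of the small subunit. The small subunit had a median of 0.30 and the large subunit one of 0.20. Among the lowest members were Rpl23 at -0.13 ± 0.22 and Rpl21 at -0.12 ± 0.23 in the authors' deposited table. Hair shaft markers had a median of -4.49 over 6 tested in the same comparison, with 1 called lower, and sebaceous gland markers one of 3.05, with 2 of 4 tested called higher. Fibroblast and macrophage markers had medians of 1.36 and 1.06 over 6 and 4 tested, with 0 called by the authors' DESeq2 test and 2 of each at an unadjusted p under 0.05. The part of these markers in the values of the members was not tested.

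Lesional over perilesional skin, derived from 3 tables since none holds it, also gave no calls and a median above 0. It was 0.39 over 83 members, a fold of 1.31, with 80 above 0 and 3 below, beside 0.05 for all genes. The normal test of the derived values called 0 members, against 0.533% of all genes (0.309% higher and 0.224% lower), and 19 of 83 (22.9%) had an unadjusted p under 0.05, beside 10.5% of all genes. The large subunit stood at a median of 0.40, with 14 of 51 at an unadjusted p under 0.05, and the small subunit at 0.33, with 5 of 32. Rpl36al, an autosomal copy of the X-linked Rpl36a, was at 0.64 ± 0.27 (derived; adjusted p = 0.35 by the normal test with Benjamini-Hochberg adjustment). Rpl32 was at 0.54 ± 0.23 and Rpl41, the smallest protein of the ribosome, at 0.61 ± 0.29 (derived; adjusted p = 0.37 and 0.42 by the same test). Rps9, at -0.02 ± 0.17, was the lowest of the members with a small SE in this derived contrast. Hair shaft markers had a median of 3.66 over 6 tested here, red blood cell markers one of 4.68 over 3 tested and cycling cell markers one of 0.54 over 5 tested, and their part in the values of the members was not tested. These steps share libraries with opposite sign, so no agreement between them is given.

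In placebo lesions compared with unexposed skin, 26 of the 83 members tested rose and 0 fell (31.3%), where 18.3% of all genes were called, 10.2% higher and 8.17% lower. The median log2 fold change over the 83 was 0.57, a fold of 1.48, with 82 above 0, beside 0.08 for all genes. An unadjusted p under 0.05 was found for 59 of 83 (71.1%), beside 31.4% of all genes. Of the large subunit 15 of 51 were called, at a median of 0.57 over the 51, and of the small subunit 11 of 32, at a median of 0.59 over the 32. Sebaceous gland markers had a median of 3.12 here, with 3 of 4 tested called higher, red blood cell markers one of 3.14, with 1 of 4 called higher, and hair shaft markers one of -2.99, with 1 of 6 called lower. Cycling cell markers ran from 0.52 to 1.37, with 4 of 5 called higher. Keratinocyte markers had a median of -0.07, with 1 of 6 called higher, and fibroblast markers one of 0.83, with 0 of 6 called by the authors' DESeq2 test. The part of these markers in the ribosomal protein values was not tested. The headers name a back group, taken as the unexposed skin, so body site and exposure cannot be told apart here. In bulk tissue, more cells of a type and more RNA per cell cannot be told apart either.

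Of the large subunit Rpl8, a protein near the peptidyl transferase centre, rose by 0.86 ± 0.23 (adjusted p = 0.0027) from the authors' deposited table. Rpl27 rose by 0.84 ± 0.23 (adjusted p = 0.0034), Rpl36al by 0.95 ± 0.27 (adjusted p = 0.0066) and Rpl18 by 0.78 ± 0.24 (adjusted p = 0.014) per the authors' deposited table. The stalk, which recruits elongation factors, is built on Rplp0 with Rplp1 and Rplp2. Of these Rplp2 rose by 0.63 ± 0.20 (adjusted p = 0.016), while Rplp0 stood at 0.51 ± 0.22 (adjusted p = 0.087) and Rplp1 at 0.64 ± 0.29 (adjusted p = 0.11) from the authors' deposited table. Their values lie within 1 SE of each other, so the calls do not separate them. Rpl5 and Rpl11 carry the 5S rRNA into the subunit and, when unassembled, bind the p53 regulator MDM2. They stood at 0.53 ± 0.23 (adjusted p = 0.10) and 0.66 ± 0.26 (adjusted p = 0.052) per the authors' deposited table, neither called. Rpl6 rose by 0.72 ± 0.24 (adjusted p = 0.020), Rpl36 by 0.72 ± 0.24 (adjusted p = 0.021) and Rpl41 by 0.85 ± 0.29 (adjusted p = 0.023) from the authors' deposited table. Rpl9, Rpl7a, Rpl19, Rpl32, Rpl23a, Rpl35 and Rpl12 make up the rest of the 15.

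Of the small subunit Rps13 rose by 0.83 ± 0.22 (adjusted p = 0.0032) and Rps23, a protein of the decoding centre, by 0.80 ± 0.23 (adjusted p = 0.0063) per the authors' deposited table. Rps2 rose by 0.86 ± 0.25 (adjusted p = 0.0088), Rps25 by 0.89 ± 0.28 (adjusted p = 0.014) and Rps18 by 0.69 ± 0.24 (adjusted p = 0.025) from the authors' deposited table. Rps3, which sits at the mRNA entry and also acts in DNA repair, rose by 0.67 ± 0.23 (adjusted p = 0.027) according to the authors' deposited table. Rps28, Rps15 and Rps29 were among the others called. Rps6, the substrate of the S6 kinases, stood at 0.45 ± 0.22 (adjusted p = 0.13) and Rps19, a gene mutated in Diamond-Blackfan anaemia, at 0.32 ± 0.20 (adjusted p = 0.27) per the authors' deposited table. Rpsa, also known as a laminin receptor, stood at 0.70 ± 0.30 (adjusted p = 0.083) and Rps27a, made as a fusion with ubiquitin, at 0.52 ± 0.23 (adjusted p = 0.10) from the authors' deposited table. The lowest of the small subunit were Rps24 at 0.22 ± 0.21 (adjusted p = 0.50) and Rps9 at 0.24 ± 0.17 (adjusted p = 0.35) per the authors' deposited table. X-linked Rps4x and Rpl10 stood at 0.46 ± 0.24 (adjusted p = 0.18) and 0.71 ± 0.28 (adjusted p = 0.055) there, in the authors' deposited table.

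In lesional over non-UV skin the log2 fold changes of all 83 members tested had an SD over genes of 0.44, above their median SE of 0.24. For the 75 with an SE of at most 0.5, a limit added after seeing the data, the SD was 0.17. That is less than their median SE of 0.23. Genes share their libraries, so an SD below the SE does not show that the members moved alike. Those 75 ran from -0.05 in Rpl22l1 to 0.95 in Rpl36al. Among the 72 of these that are no copies, transcript length and log2 fold change had a Pearson r of -0.04 and a Spearman rho of -0.09. That correlation is across genes, which share their libraries and are no independent replicates. The 34 members with a marked TOP-like run had a median of 0.56 and the 28 tested without a marked run a median of 0.59. Of the called members with a window 10 of 19 held a marked run, and of those not called 24 of 43. The marking rests on annotated starts, so these are not groups with and without a TOP tract. The call count depends on the scaling: after centring on the median of all genes 12 members were called, and with the null spread taken from all genes 0.

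**Figure D1:**
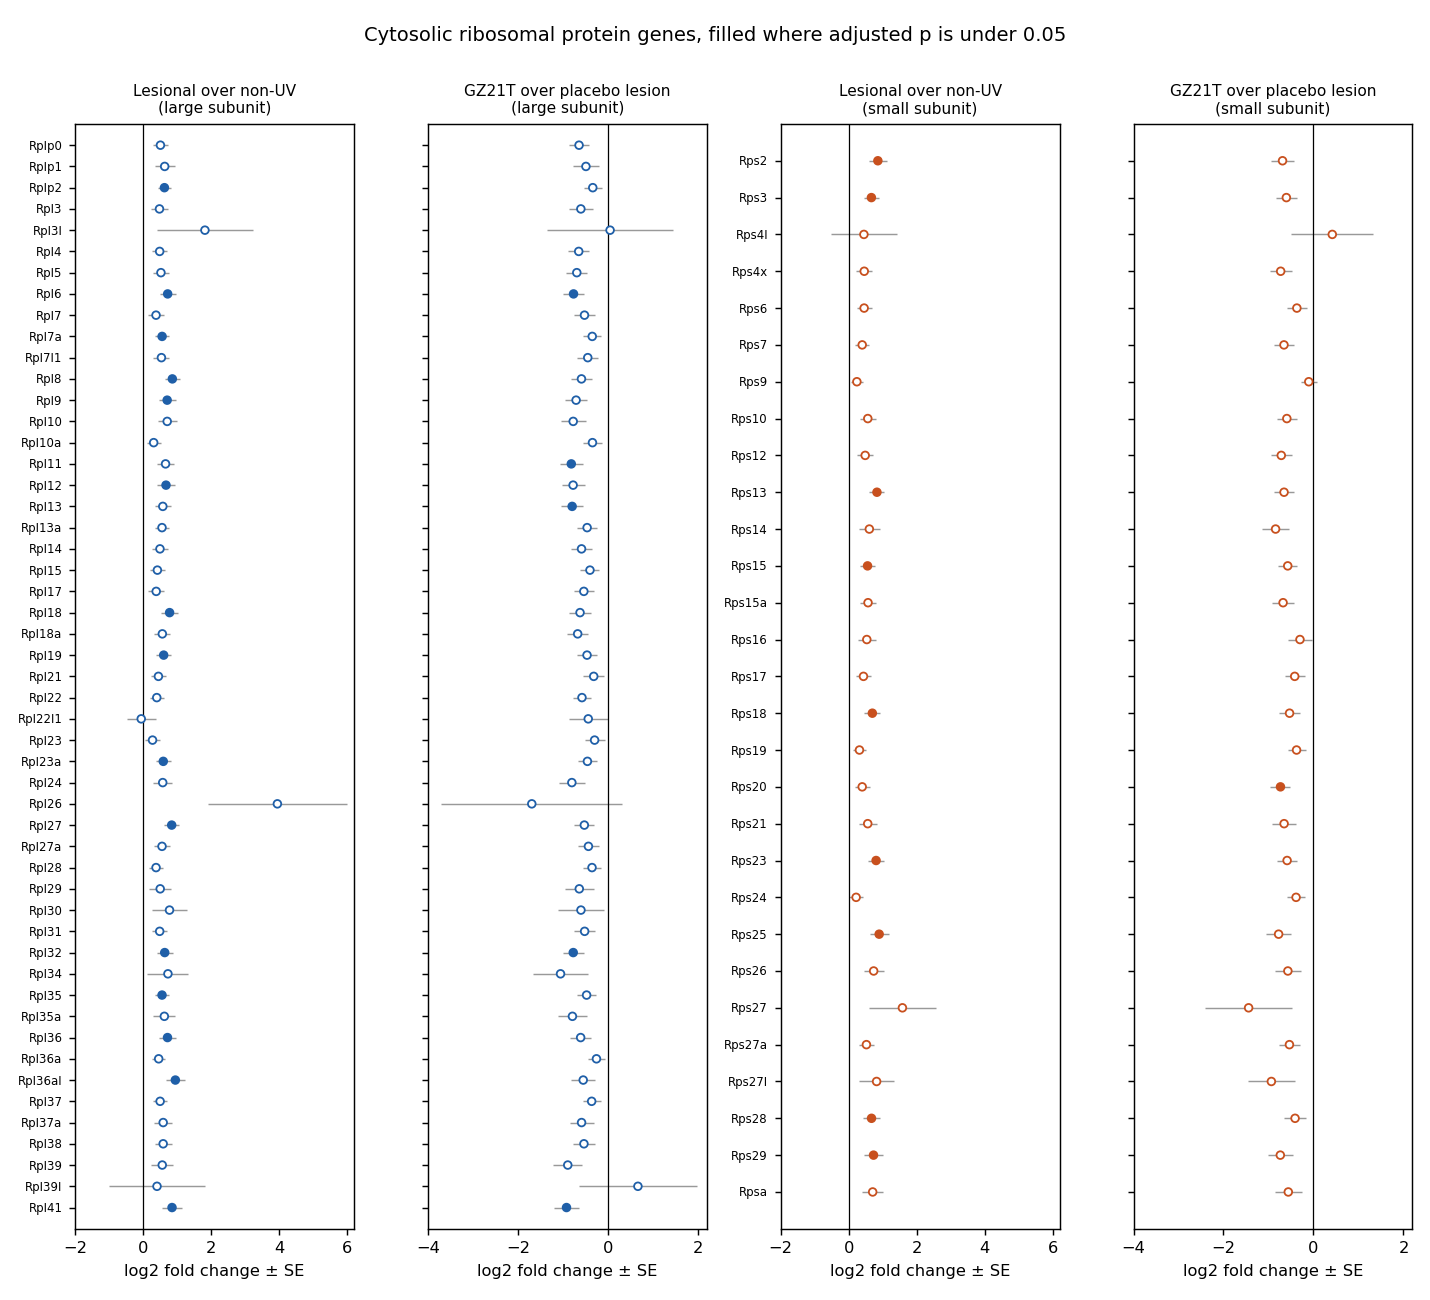
Log2 fold change with its SE for ribosomal protein genes with a value (rows; large subunit in blue, small subunit in orange) in lesional over non-UV skin and in GZ21T over placebo lesional skin. Filled points have an adjusted p under 0.05 and lie to the right of 0 in the first comparison and to the left of 0 in the second, with wide bars on Rpl26, Rps27, Rpl3l, Rpl39l and Rps4l.

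GZ21T-treated lesions were compared with placebo lesions to ask what the treatment changes in the lesion. Of the 80 members tested 7 fell under GZ21T and 0 rose (8.75%), where 3.61% of all genes were called, 1.31% higher and 2.29% lower. The median log2 fold change over the 80 was -0.59, a fold of 0.666, with all but 1 below 0, and the median of all genes was -0.06. An unadjusted p under 0.05 was found for 53 of 80 (66.2%), beside 22.9% of all genes. The large subunit had 5 of 50 lower at a median of -0.58, and the small subunit 2 of 30 lower at a median of -0.63. Red blood cell markers were called lower for 2 of 2 tested. Sebaceous gland markers had a median of -1.32 over 2 tested and hair shaft markers one of 1.83 over 4 tested, with 0 called by the authors' DESeq2 test and 0 and 1 at an unadjusted p under 0.05. Cycling cell markers ran from -1.39 to -0.37, with 0 of 5 called by that test and 4 at an unadjusted p under 0.05. Keratinocyte markers had a median of -0.10, with 1 of 6 called higher, and fibroblast markers one of -0.35, with 0 of 6 called by that test. The part of these markers in the ribosomal protein values was not tested.

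The 7 called members had adjusted p-values between 0.041 and 0.046, close to the threshold. Rps20, a protein of the small subunit head, fell by 0.73 ± 0.22 (adjusted p = 0.041) from the authors' deposited table, turned in sign. Rpl41 fell by 0.92 ± 0.29 (adjusted p = 0.044), Rpl11 by 0.81 ± 0.26 (adjusted p = 0.046) and Rpl13 by 0.79 ± 0.24 (adjusted p = 0.042) per the authors' deposited table. Rpl32 fell by 0.77 ± 0.24 (adjusted p = 0.042) and Rpl6 by 0.76 ± 0.24 (adjusted p = 0.044) from the authors' deposited table. Rpl5, the partner of Rpl11, stood at -0.69 ± 0.23 (adjusted p = 0.063) and Rplp0 at -0.64 ± 0.22 (adjusted p = 0.066) per the authors' deposited table. Rps4x stood at -0.73 ± 0.24 (adjusted p = 0.059), Rps3 at -0.60 ± 0.23 (adjusted p = 0.094) and Rps6 at -0.37 ± 0.22 (adjusted p = 0.30) from the authors' deposited table. The least negative tested member of the small subunit was Rps9 at -0.10 ± 0.17 (adjusted p = 0.77), by the authors' deposited table. No call was left when all genes with a p were adjusted together without the authors' filter on low counts, after centring on the median of all genes, or with a null spread estimated over all genes.

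Rpl32, Rpl6 and Rpl41 were called in lesions over unexposed skin and under GZ21T, with opposite signs. Both comparisons use the placebo lesional libraries, once as numerator and once as denominator, so the values are only set side by side. For Rpl32 these are 0.64 ± 0.23 in lesions over unexposed skin and -0.77 ± 0.24 under GZ21T in the authors' deposited tables. Subtracting the placebo lesion out places GZ21T lesions over unexposed skin at -0.13 for Rpl32, -0.04 for Rpl6 and -0.07 for Rpl41, derived values for which no SE can be had. The same derived values were -0.34 for Rps20, -0.21 for Rpl13 and -0.15 for Rpl11. Their median over 80 members was -0.01, with 38 above 0 and 42 below. GZ21T lesions over placebo non-lesional skin, derived with an SE, had a median of 0.04 over 83 members, against 0.02 for all genes. The normal test called 0 of them there and 0% of all genes, and 0 members had an unadjusted p under 0.05, beside 3.31% of all genes. Placebo lesions over non-lesional skin stood at a median of 0.63 with all 83 tested above 0, and perilesional over unexposed skin at 0.24, again derived and without an SE. No median of all genes is set beside the values without an SE, so a shift of the members alone cannot be read from them.

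**Figure D2:**
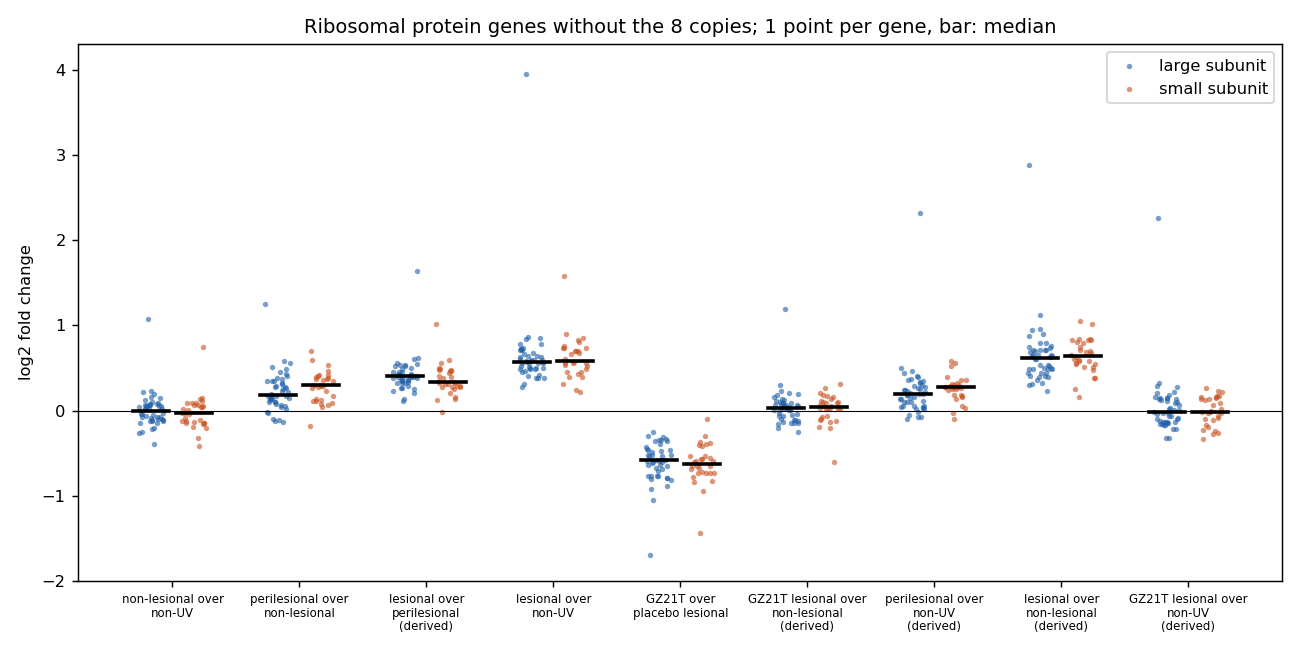
Log2 fold change of the 76 ribosomal protein genes that are no copies (points; large subunit blue, small subunit orange; bars mark the medians) in each deposited and derived comparison, whether or not a gene was tested. Medians lie near 0 for non-lesional over non-UV skin, at 0.57 and 0.59 by subunit in lesional over non-UV skin, and lie below -0.5 in GZ21T over placebo lesions. Rpl26 is the highest point where one stands far above the rest.

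The 8 copies were set beside their parent genes. Rpl36al, whose parent is the X-linked Rpl36a, was the copy that was called: 0.95 ± 0.27 (adjusted p = 0.0066) beside 0.46 ± 0.19 (adjusted p = 0.075) for the parent in lesional over non-UV skin in the authors' deposited table. Rpl22l1, which can take the place of Rpl22, stood at -0.05 ± 0.43 (adjusted p = 0.95) beside 0.40 ± 0.20 (adjusted p = 0.15) per the authors' deposited table. It was the member below 0 in that comparison. Rps27l, a target of p53, stood at 0.82 ± 0.52 (adjusted p = 0.28) and its parent Rps27 at 1.58 ± 0.97 (adjusted p = 0.26) from the authors' deposited table. Rpl7l1, a factor of large subunit assembly, stood at 0.54 ± 0.24 (adjusted p = 0.092) beside 0.38 ± 0.23 (adjusted p = 0.25) for Rpl7 in the authors' deposited table. Differences between a copy and its parent were not tested, since their errors share the same libraries.

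Copies of restricted tissues carried little information. Rpl3l, expressed in striated muscle, stood at 1.82 ± 1.42 (adjusted p = 0.39) in lesional over non-UV skin and 0.05 ± 1.41 (adjusted p = 0.99) under GZ21T in the authors' deposited tables. The 6 skeletal muscle markers ran from 1.37 to 2.43 in the first of these and from -0.27 to 0.45 in the second, with 0 called in either, and their part in the Rpl3l values was not tested. Rpl39l, known from testis, stood at 0.41 ± 1.42 (adjusted p = 0.88) and Rps4l at 0.45 ± 0.96 (adjusted p = 0.79) in lesional over non-UV skin in the authors' deposited table. Under GZ21T neither they nor Rps27 received an adjusted p. Rpl10l, a testis gene, has no fold change in any table.

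**Figure D3:**
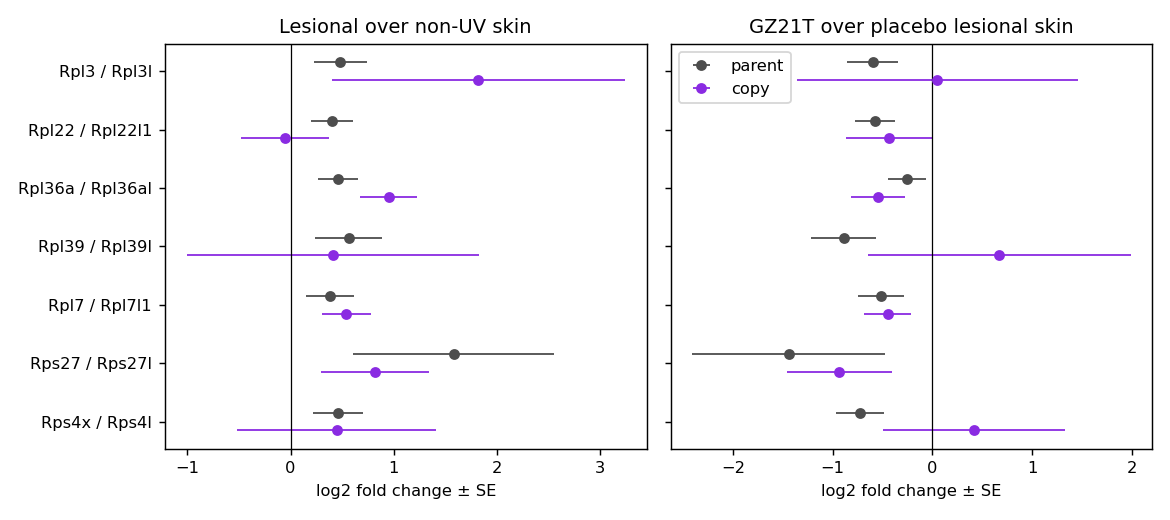
Log2 fold change with its SE for 7 copies (violet) and their parent genes (grey) in lesional over non-UV skin and GZ21T over placebo lesional skin. Rpl36al lies to the right of Rpl36a by more than the SE of either in the first comparison, Rpl22l1 lies near 0, and the bars of Rpl3l, Rpl39l and Rps4l reach or cross 0 in at least 1 panel.

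Several core members had SEs far above the rest, and their values say little. Rpl26 stood at 3.95 ± 2.03 (adjusted p = 0.16), Rpl34 at 0.73 ± 0.60 (adjusted p = 0.42) and Rpl30 at 0.78 ± 0.52 (adjusted p = 0.30) in lesional over non-UV skin in the authors' deposited table. Ribosomal protein genes have many processed pseudogenes: GENCODE names 299 by a parent's symbol and the tables list 7 such symbols, for 6 members. How reads shared between near-identical copies were counted is not given in the sources used here, so each member's value is uncertain to that extent. No member had values identical to another gene. The small subunit gene left out by the rule, Rps3a1, stood at 0.43 ± 0.22 (adjusted p = 0.15) in lesional over non-UV skin in the authors' deposited table. The fusion gene Fau, which encodes Rps30, was higher there by 0.58 ± 0.21 (adjusted p = 0.039) per the authors' deposited table.

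Other genes of protein synthesis were read from lists. Of 31 translation factors and further TOP mRNA genes 12 were higher and 1 lower in lesional over non-UV skin (41.9%, beside 18.3% of all genes), at a median of 0.49. They were led by Eif4ebp1, the mTOR-regulated brake on cap-dependent initiation, at 1.88 ± 0.35 (adjusted p = 9.5e-06) and Eif5a at 1.17 ± 0.26 (adjusted p = 0.0003) from the authors' deposited table. Under GZ21T 2 of 31 were lower and 0 higher (6.45%, beside 3.61% of all genes) at a median of -0.31, namely Eif3f, a subunit of the initiation factor eIF3, at -1.03 ± 0.25 (adjusted p = 0.011) and Hnrnpa1 at -0.73 ± 0.23 (adjusted p = 0.042) per the authors' deposited table. Mitochondrial ribosomal proteins, which serve another ribosome, were higher for 12 of 77 and lower for 0 in lesional over non-UV skin (15.6%, beside 18.3% of all genes called and 10.2% called higher), at a median of 0.52. Mrps27 rose by 1.04 ± 0.26 (adjusted p = 0.0015) and Mrpl12 by 1.04 ± 0.28 (adjusted p = 0.0030) from the authors' deposited table. Under GZ21T 0 of 72 were called by the authors' DESeq2 test, beside 3.61% of all genes, at a median of -0.37. Of the 72, 15 (20.8%) had an unadjusted p under 0.05, beside 22.9% of all genes.

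Ribosome biogenesis genes, which make and process rRNA and assemble the subunits, were higher for 5 of 58 and lower for 3 in lesional over non-UV skin (13.8%, beside 18.3% of all genes), at a median of 0.33. Nhp2, a protein of the small nucleolar ribonucleoproteins, rose by 1.38 ± 0.36 (adjusted p = 0.0025) and Mrto4 by 1.00 ± 0.27 (adjusted p = 0.0036) per the authors' deposited table. Under GZ21T 2 of 58 were lower (3.45%, beside 3.61% of all genes): Rsl24d1 at -0.94 ± 0.27 (adjusted p = 0.028) and Nhp2 at -1.15 ± 0.36 (adjusted p = 0.044) from the authors' deposited table. In perilesional over non-lesional skin their median was -0.18 with 48 of 58 below 0, while the ribosomal protein genes had a median of 0.27. In derived lesional over perilesional skin all 58 lay above 0 at a median of 0.42. There 30 (51.7%) had an unadjusted p under 0.05, beside 10.5% of all genes. The normal test called 0 of the 58, beside 0.533% of all genes. Gnl3, nucleostemin, was closest there at 0.70 ± 0.20 (derived; adjusted p = 0.053 by the normal test with Benjamini-Hochberg adjustment).

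Among 19 regulators of ribosomal protein synthesis 3 were higher and 2 lower in lesional over non-UV skin (26.3%, beside 18.3% of all genes). Their median was -0.07, with 9 above 0 and 10 below. Eif4ebp1, which is also in the list of translation factors, was 1 of the 3 higher. Myc rose by 0.92 ± 0.28 (adjusted p = 0.0093) and Tsc1, an inhibitor of mTOR complex 1, fell by 0.57 ± 0.16 (adjusted p = 0.0056) per the authors' deposited table. Under GZ21T 1 of 18 was lower (5.56%, beside 3.61% of all genes), the kinase gene Akt1 at -0.51 ± 0.15 (adjusted p = 0.036) from the authors' deposited table. The median of these 18 was -0.07, with 8 above 0 and 10 below. Subunits of oxidative phosphorylation, a list of 74 written after the values were seen, had a median of 0.82 in lesional over non-UV skin and of -0.30 under GZ21T. In the first 11 of 74 were higher and 0 lower (14.9%, beside 18.3% of all genes called and 10.2% called higher). In the second the authors' DESeq2 test called 0 of 73, beside 3.61% of all genes. There 2 (2.74%) had an unadjusted p under 0.05, beside 22.9% of all genes. Their median SEs were 0.44 and 0.43, against 0.24 for the members in both. The members are short genes, with a median transcript length of 638 bases against 1502 for the protein-coding genes tested. Protein-coding genes of up to 1000 bases, members left out, had medians of 0.18 and -0.13 in these comparisons. All genes tested had medians of 0.08 and -0.06, and the members 0.57 and -0.59. The part of transcript length in the values of the members was not tested.

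**Figure D4:**
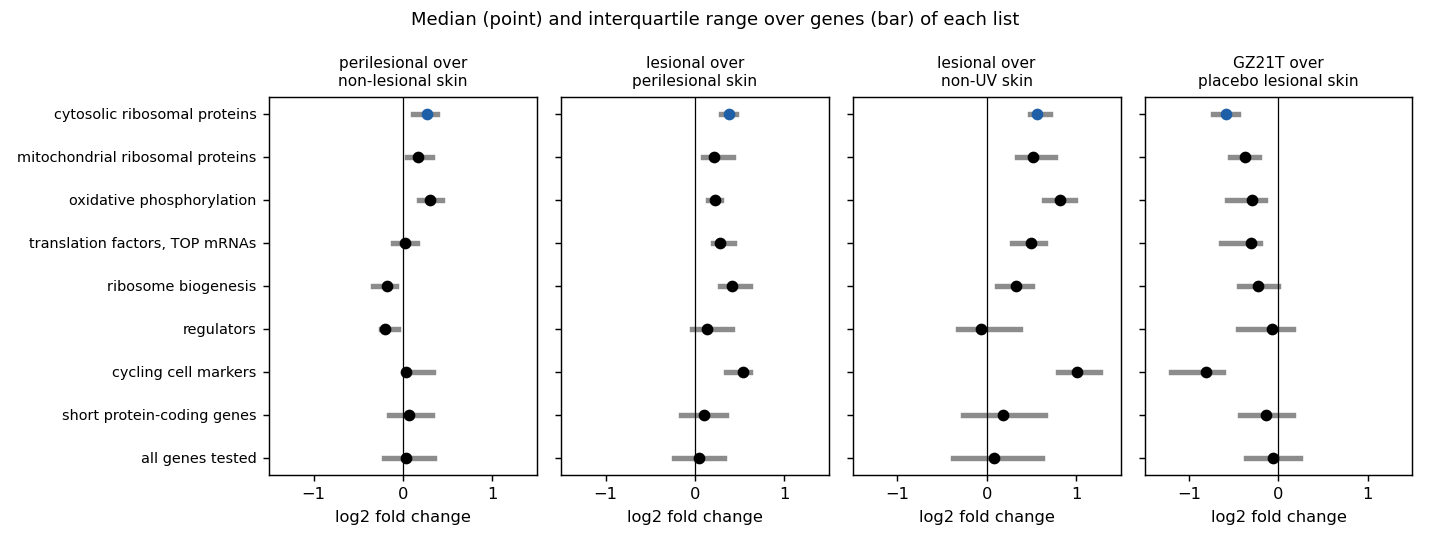
Median (point) and interquartile range over genes (bar) of the log2 fold change for the ribosomal protein genes (blue), other lists and all genes tested, in 4 comparisons. The ribosomal protein genes lie at 0.27, 0.39, 0.57 and -0.59 from the first panel to the last, while all genes lie at 0.03, 0.05, 0.08 and -0.06.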

How the data were processed

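The submitters' processing notes name Trim Galore, DESeq2 and the build GRCm38 (mm10) for the 15 total RNA libraries. The aligner, counter, annotation, tool versions and model were not given in the sources used here. There are 4 tables deposited by the authors, which hold, per the file headers, a log2 fold change, a Wald statistic (a score, the fold change over its SE), a p-value and an adjusted p-value per gene. Depth per library is unknown.

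From these, 25 date-like symbols per table were removed and SEs were computed as fold change over statistic. The table named for perilesional and lesional skin was used as its header says, lesional over back skin: of 1423 genes listed at 0 for non-lesional against non-UV skin, 704 were positive and 0 negative in it. Back was taken as the non-UV group. The GZ21T table was turned in sign; of 450 genes at 0 in the other 3 tables, 142 were higher and 0 lower in GZ21T. Lesional over perilesional and GZ21T lesional over non-lesional skin were derived as sums of deposited values, with SEs exact if the model holds the group alone, normal tails and Benjamini-Hochberg adjustment over 15187 genes. Simulated data with independent groups returned the derived SEs, which checks the arithmetic and not whether that model holds here. Other derived pairs have no SE.

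Members and lists were chosen with earlier results of these data known. Named were up to 15 called members, the extremes, copies and fixed members, and up to 3 genes per pathway list. A few members are counted but not reported by name here or in the plot of members. Alternatives changed the threshold, filter, centring, null spread, members and derived SE. Leaving out members with an SE over 0.5 was added after seeing the data. Versions were Python 3.11.15, pandas 2.3.3, numpy 2.4.6 and scipy 1.17.1.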

Additional observations from a re-analysis of the deposited data

How the results depend on the processing

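Counts of called members moved with the threshold, centring and null spread in both comparisons that had calls, and with the filter on low counts under GZ21T. In lesional over non-UV skin, with 26 called, 44 were called at an adjusted p under 0.1, 6 under 0.01, 12 after centring on the median of all genes and 0 with a null spread estimated over all genes. In GZ21T over placebo lesions, with 7 called, 32 were called under 0.1 and 0 under 0.01, 0 without the filter on low counts, 0 after centring and 0 with the null spread from the genes. Leaving out the copies, the members with a named pseudogene or, as an alternative added after seeing the data, those with an SE over 0.5 kept both counts within 1.5 times. The other comparisons had 0 calls under every alternative run. For lesional over perilesional skin these include the largest of the 3 SEs computed from the deposited values. Medians moved by less than the median SE of a member under every alternative run, but the median of non-lesional over unexposed skin lay on either side of 0, between -0.02 and 0.01. No paired analysis was possible because the tables hold no values per library, and for the same reason no replicate could be left out. Precision is limited by 3 libraries per group.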
